A study of Caenorhabditis elegans with 165 samples.

Results

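The genes described here are the nuclear genes for mitochondrial ribosomal proteins of Caenorhabditis elegans, whose symbols begin with mrpl (large subunit) or mrps (small subunit). They were chosen by symbol alone, after the gene identifiers of the count tables had been matched to the locus tags of the WBcel235 annotation. The annotation held 71 such symbols, and 70 of them, 41 mrpl and 29 mrps, were found among the 20389 identifiers counted. The remaining symbol, mrpl-42, had no matching identifier and was not analysed here.

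Mitochondria translate a few proteins of the respiratory chain from their own genome on a ribosome of bacterial descent. Its RNAs come from the mitochondrial genome, whereas its proteins are encoded in the nucleus, made in the cytosol and imported. In C. elegans, reduced function of mrps-5 and of other genes of this class is known to lengthen life and to induce the mitochondrial unfolded protein response.

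RNA was counted from whole worms of 3 strains, with 4 libraries per strain and no treatment named. N2 is the wild-type strain. Strain 15eh1 carries a fusion of X and V (X;V), and strain YPT41 a fusion of X and II (X;II). They are called by their strain names below. The sample labels give the stage as L1-L3, whereas the design text names L3 larvae. Each fusion is represented by a single strain, so the fusion and any other difference of that strain cannot be told apart, and nothing states whether the libraries of a strain came from separate cultures. P-values therefore measure the spread between these libraries, which may be technical. The comparisons asked whether genes of this class differed between each fusion strain and N2, and between both fusion strains.

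Gene counts per library ranged from 8237095 to 31234047, and 15296 to 18132 genes had at least 1 count. Replicate 1 of every strain stood apart. The 6 yolk protein genes of the adult hermaphrodite intestine summed to between 66956 and 166746 CPM there (CPM, counts scaled to a common library size), against 2.71 to 427 CPM in the other 9 libraries, and 18 germline markers summed to between 2799 and 10444 CPM, against 95.2 to 177. Sperm markers were low throughout but followed the same division (74.9 to 195 CPM against 0.774 to 2.67, with up to 28 of the 32 genes at 0). The sums of 10 markers of the molting epidermis overlapped when the strains were pooled (1152 to 2145 CPM against 1575 to 3973). Within each strain, however, replicate 1 had the lowest sum of these markers. In scaled CPM, YPT41 replicate 4 also stood apart for the genes described here. Medians over gene lists are also given without these libraries where they move. In whole-worm RNA, fewer cells of a type and less RNA per cell cannot be told apart.

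Of the 70 genes, 69 passed the filter on low counts and were tested among 13186 genes. The exception was mrps-16, a small-subunit gene on chromosome II, which had 0 counts in all 12 libraries. In a single library 3 counts equal 0.0960 to 0.364 CPM, and a level below that was not detectable at this depth. The lowest count of a tested gene in any library was 52 (mrpl-54 in N2 replicate 1), and mean levels over the 12 libraries lay between 6.87 and 173 CPM with a median of 27.3. CPM values are not divided by gene length, so levels are compared here between libraries and not between genes. The genes lay on every autosome (15 on I, 12 on II, 23 on III, 10 on IV and 10 on V) and none lay on X. Only mrps-2 and mrpl-4 on V were direct neighbours.

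As a class, the mitochondrial ribosomal protein genes took a small share of the counts in the 3 strains. In N2 they summed to 0.143%, 0.270%, 0.236% and 0.262% of gene counts in replicates 1 to 4. In 15eh1 the shares were 0.146%, 0.239%, 0.266% and 0.247%. In YPT41 they were 0.177%, 0.234%, 0.209% and 0.216%. Replicate 1 was the lowest library of every strain, and over all 4 libraries the ranges of the strains overlapped. In replicates 2 to 4 the shares in YPT41 were 0.209% to 0.234%. All lay below those of N2 (0.236% to 0.270%) and 15eh1 (0.239% to 0.266%), a difference that was not tested. With the yolk genes left out of the total, the shares in replicate 1 were 0.162%, 0.167% and 0.190% for N2, 15eh1 and YPT41, still the lowest of each strain.

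No gene of the class passed the test in 15eh1 (X;V) against N2. With edgeR's quasi-likelihood test and Benjamini-Hochberg adjustment over all tested genes, 0 of 69 were called (0.0% of all tested genes were called). With the replicate number as a block 0 were called as well (0.0683%), as in replicates 2 to 4 alone (0.015%) and with DESeq2 (0.0758%). Without the block, 2 reached an unadjusted p under 0.05, a share to be read beside 1.56% of all tested genes. The median log2 fold change (a change of 1 is a 2-fold difference) was 0.02, against 0.01 over all tested genes, with 37 of 69 genes above 0. Single genes ranged from -0.64 to 0.47. With RLE size factors the median was -0.02, against -0.03 over all tested genes. The 41 mrpl genes had a median of 0.03 and the 28 tested mrps genes a median of -0.03. No gene had all 4 15eh1 libraries above or all 4 below those of N2 (0.963% of all tested genes were higher without overlap and 0.728% lower).

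In YPT41 (X;II) against N2 the class as a whole was also near 0, but one gene, mrpl-28, stood well below the rest. In edgeR's quasi-likelihood test 0 of 69 genes were called (0.22% of all tested genes were called), the lowest adjusted p being 0.161 for mrpl-28, and 4 reached an unadjusted p under 0.05 (8.82% of all tested genes did). Over all 12 libraries the replicate number met the pairing criterion given with the processing. Without replicate 1, 4 of 9 same-numbered pairs met it, so the number is not shown to pair replicates 2 to 4. With the replicate number as a block, 1 gene, mrpl-28, was called lower (edgeR adjusted p = 0.00916). Beside it, 1.1% of all tested genes were called lower and 5.2% in either direction. The same gene was the 1 called in replicates 2 to 4 alone (1.01% of all tested genes called), in these with the block (1.2%) and with DESeq2 (2.18%). The median log2 fold change of the class was 0.02, against 0.03 over all tested genes, with 39 of 69 above 0. That median rested on 1 library: without YPT41 replicate 4 it was -0.25, with 12 of 69 above 0, while the median of all tested genes was -0.05. In replicates 2 to 4 alone the median of the class was -0.10, with 25 above 0, against 0.02 over all tested genes. With RLE size factors, an alternative scaling, the class median was -0.09 with 25 above 0, and the median of all tested genes moved to -0.07. On the scale of the log2 values, 1 gene was higher without overlap, mrps-11, and 3 were lower, mrpl-23, mrpl-28 and mrps-30 (3.75% and 1.82% of all tested genes, respectively). Of these, mrpl-23 is named after its values were seen, and in CPM its N2 and YPT41 ranges met at 17.3.

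The fusion strains were also compared directly. Here 0 of 69 genes were called in edgeR's quasi-likelihood test (0.182% of all tested genes were called), with a lowest adjusted p of 0.262, and 2 reached an unadjusted p under 0.05 (5.76% of all tested genes did). With the replicate block, mrpl-28 was called higher in 15eh1 (adjusted p = 0.016), beside 0.501% of all tested genes called higher and 1.83% in either direction. It was also the 1 gene called in replicates 2 to 4 alone (0.556%) and with DESeq2 (1.1%). The median of the class was 0.05, against -0.02 over all tested genes, and it ranged from 0.01 to 0.23 as single libraries were left out. Without overlap, mrpl-23 and mrpl-28 were higher and mrps-12 was lower in 15eh1 (1.33% and 2.73% of all tested genes, respectively). Both comparisons with N2 share the N2 libraries, and no relation between them was measured.

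The precision was limited by the spread within strains. Standard errors of the log2 fold changes in 15eh1 against N2 ranged from 0.20 to 0.44. The 95% interval lay within a 2-fold change in either direction for 56 of 69 genes in 15eh1 against N2, for 51 in YPT41 against N2 and for 48 in 15eh1 against YPT41. With the replicate block, these numbers were 66, 64 and 65. For the remaining genes a 2-fold difference in at least one direction lay inside the interval.

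**Figure D1:**
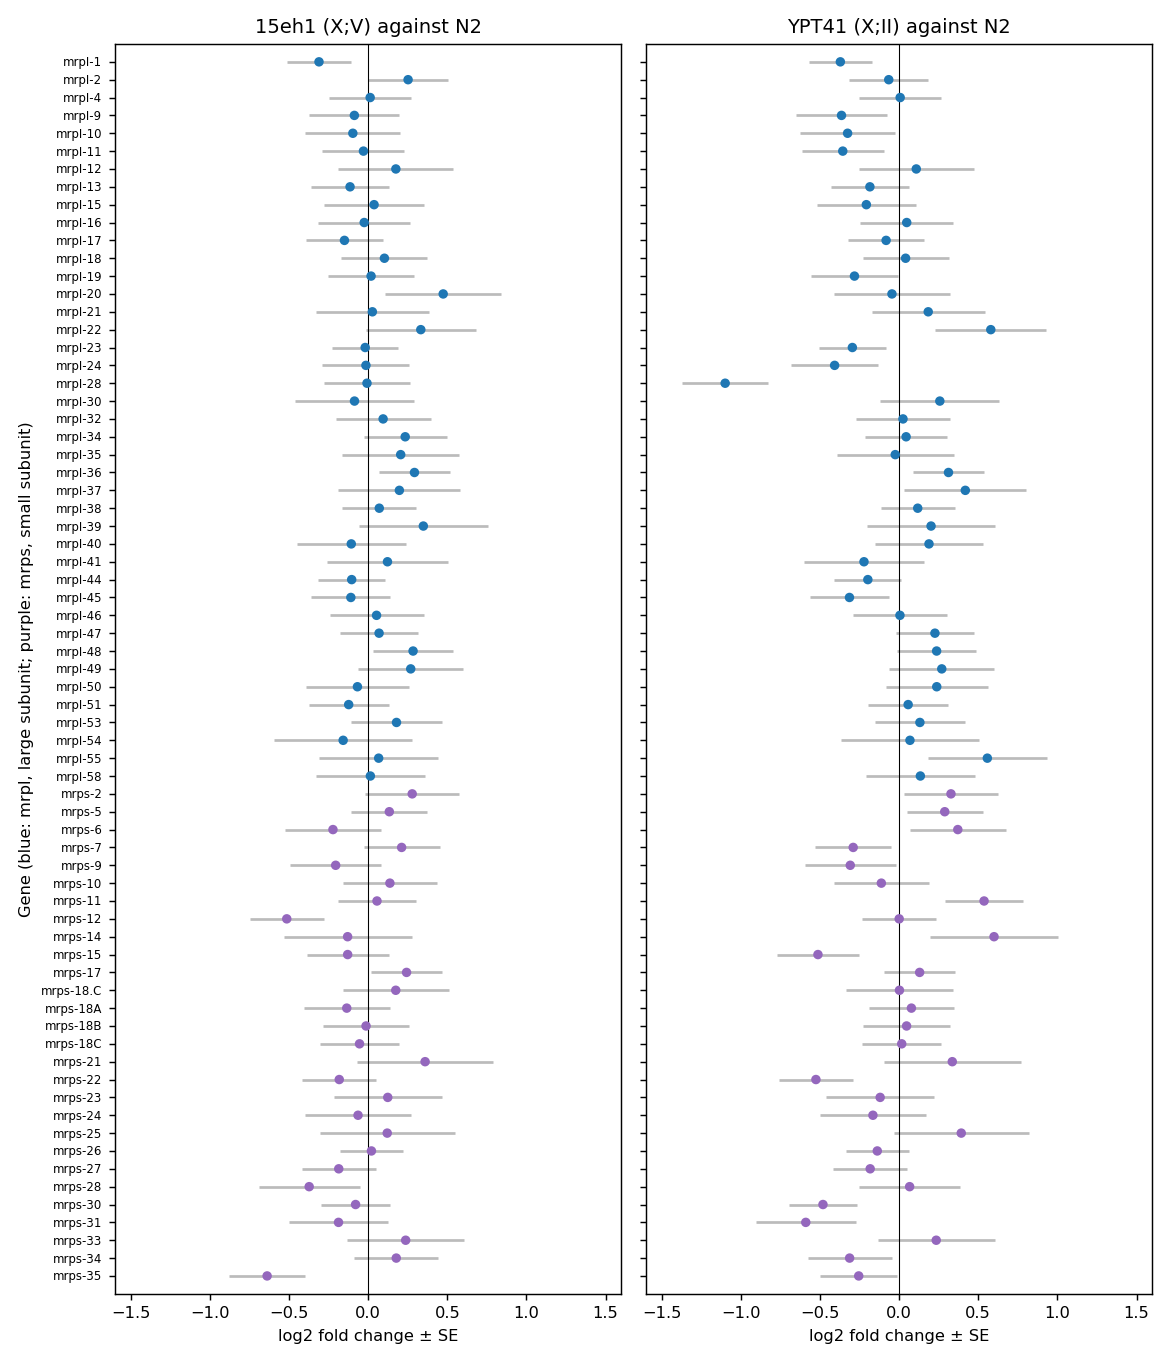
Log2 fold change (x axis) of the 69 tested genes (y axis, mrpl blue, mrps purple) in each fusion strain against N2, from edgeR's fit of all 12 libraries; bars are ± SE. mrpl-28 lies lowest in YPT41 at -1.10, and mrps-35 and mrps-12 lie lowest in 15eh1 at -0.64 and -0.51.

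Among the large-subunit genes, mrpl-28, the gene for the counterpart of bacterial ribosomal protein L28, gave the largest difference of the class. Its level was 39.4, 29.3, 26.5 and 31.8 CPM in N2 replicates 1 to 4. In 15eh1 it was 39.2, 29.7, 33.2 and 24.2 CPM, and in YPT41 20.0, 12.8, 10.8 and 15.5 CPM. Every YPT41 library lay below every library of the other strains, and YPT41 was lower in 4 of 4 same-numbered pairs, while N2 and 15eh1 overlapped. The means were 14.8 ± 4.00 CPM in YPT41, 31.7 ± 5.54 in N2 and 31.6 ± 6.31 in 15eh1 (SD, n = 4). The log2 fold change of YPT41 against N2 was -1.10 ± 0.27 (SE, edgeR adjusted p = 0.161), with a 95% interval from -1.69 to -0.51. With the replicate block it was -1.11 ± 0.19 (edgeR adjusted p = 0.00916).

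The difference in mrpl-28 was at least as large without the libraries that stood apart. In replicates 2 to 4 alone the log2 fold change of YPT41 against N2 was -1.27 (edgeR adjusted p = 0.0207), and without YPT41 replicate 4 it was -1.20. Leaving out single libraries from the fit without the block gave values from -1.38 to -0.99 and adjusted p-values from 0.104 to 0.368. 15eh1 stood above YPT41 by 1.09 ± 0.27 (edgeR adjusted p = 0.262), by 1.11 ± 0.19 with the block (adjusted p = 0.016) and by 1.23 in replicates 2 to 4 (adjusted p = 0.0243), a call lost in those 9 libraries once the block was added (adjusted p = 0.0515). Against N2, 15eh1 differed in mrpl-28 by -0.01, with a 95% interval from -0.59 to 0.58.

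mrpl-28 lies near the left end of chromosome II, the chromosome joined to X in YPT41, as the 37th tested gene from that end. The labels do not say which ends were joined. The 10 tested genes flanking it, 5 on each side, were all below 0 in YPT41 against N2, with a median log2 fold change of -0.56 and a range of -1.46 to -0.21. Over the first 100 tested genes from that end the median was -0.46, and 80 lay below 0. Thus mrpl-28 lay among genes that were mostly lower, and below their median.

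The other mitochondrial ribosomal protein gene of that window was mrpl-41, 56th from the end, which encodes a large-subunit protein without a bacterial counterpart. It was counted at 10.2, 16.8, 20.8 and 24.0002 CPM in N2, at 9.56, 19.5, 26.5 and 22.6 CPM in 15eh1 and at 13.2, 13.05, 11.8 and 23.6 CPM in YPT41. The groups overlapped, YPT41 was lower in 3 of 4 pairs, and YPT41 replicate 4 was about as high as the highest N2 library. The log2 fold change was -0.22 ± 0.38, and its 95% interval ran from -1.05 to 0.61. Without YPT41 replicate 4 it was -0.59. The 10 flanking genes had a median of -0.16, with 7 below 0. The other 9 tested genes of the class on chromosome II had a median of 0.05, with 3 below 0 and a range of -0.53 to 0.60.

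On chromosome V, joined to X in 15eh1, the 3 genes of the class nearest the right end were lower in 15eh1 than in N2, though none passed the test. Nearest was mrps-12, 14th from the end, whose bacterial counterpart S12 sits at the decoding centre of the small subunit. Its level was 20.0, 24.1, 28.3 and 30.1 CPM in N2 and 16.0, 20.2, 18.4 and 17.1 CPM in 15eh1. In YPT41 it was 22.7, 31.7, 21.0 and 27.1 CPM. 15eh1 was lower than N2 in 4 of 4 pairs but the ranges met, with the highest 15eh1 library just above the lowest N2 library, while every 15eh1 library lay below every YPT41 library. The log2 fold change of 15eh1 against N2 was -0.51 ± 0.23 (edgeR unadjusted p = 0.0487, adjusted p = 0.762 with the block). Against YPT41 it was -0.52 ± 0.23 (edgeR adjusted p = 0.863), and YPT41 against N2 was 0.00. The 10 genes flanking mrps-12 were all below 0, with a median of -0.61.

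Farther in lay mrps-28 (128th) and mrps-35 (198th), both genes for proteins of the mitochondrial small subunit. For mrps-28 the levels were 16.9, 23.1, 20.2 and 29.5 CPM in N2, 18.4, 17.1, 16.5 and 17.3 CPM in 15eh1 and 19.7, 20.7, 14.2 and 39.3 CPM in YPT41. 15eh1 was below N2 in 3 of 4 pairs, and the ranges overlapped. The log2 fold change of mrps-28 was -0.37 ± 0.32 (edgeR unadjusted p = 0.264). For mrps-35 the levels were 45.4, 41.2, 32.7 and 42.8 CPM in N2, 36.5, 21.8, 24.4 and 21.5 CPM in 15eh1 and 30.9, 37.4, 31.5 and 35.9 CPM in YPT41. 15eh1 was below N2 in 4 of 4 pairs, and only 15eh1 replicate 1 reached into the N2 range.

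The log2 fold change of mrps-35 in 15eh1 against N2 was -0.64 ± 0.24 (edgeR unadjusted p = 0.0219), the lowest of the class in that comparison. It was -0.65 ± 0.20 with the block (edgeR adjusted p = 0.589) and -0.81 in replicates 2 to 4 alone (edgeR adjusted p = 0.498). In the YPT41 strain, where V is not joined to X, mrps-35 was at -0.26 against N2 and lower in 4 of 4 pairs. The genes flanking mrps-28 and mrps-35 had medians of -0.26 and -0.13. Outside the fixed window of 100 tested genes, 9 genes of the class on V had a median of 0.13 in 15eh1 against N2. Their range was -0.64 to 0.35, and 2 of them, mrps-28 and mrps-35, lay below 0. Setting these 2 apart was a split made after the values were seen. The remaining 7 all lay above 0, from 0.01 to 0.35 with a median of 0.27. In YPT41 against N2 the same 7 also all lay above 0, with a median of 0.27. The median of the 100 tested genes nearest the right end was -0.52, with 88 below 0. Over the nearest 200, a width chosen after the values were seen, it was -0.47 with 169 below 0.

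**Figure D2:**
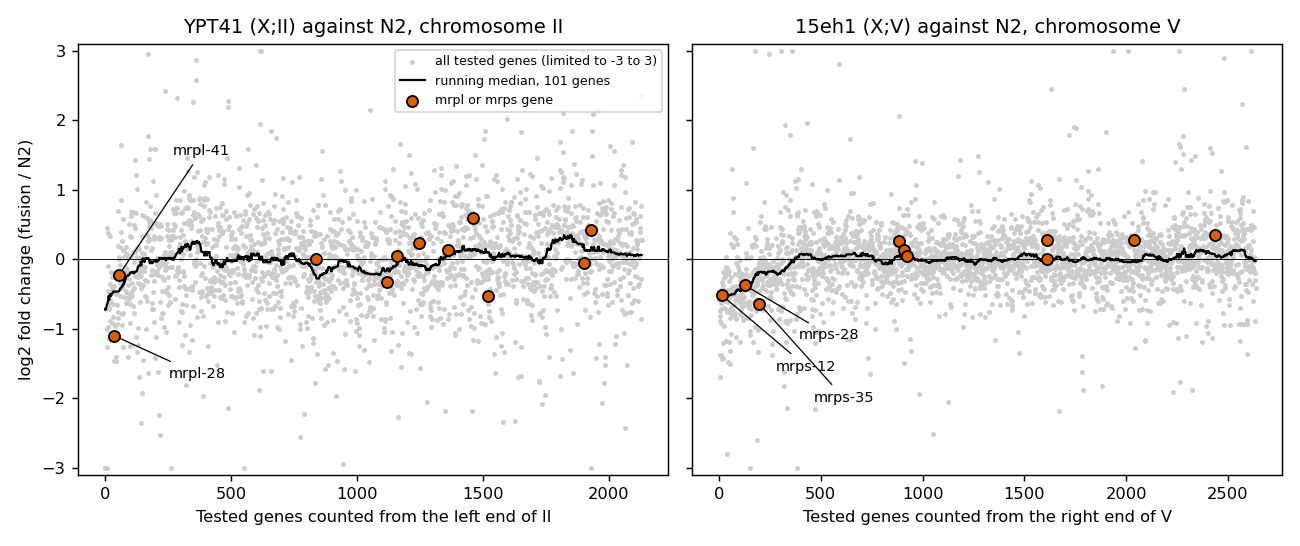
Log2 fold change (y axis) against position, as the number of tested genes counted from the left end of II for YPT41 against N2 and from the right end of V for 15eh1 against N2; grey points are all tested genes, the line a running median, orange points the mitochondrial ribosomal protein genes. The running median falls below 0 toward each end, where mrpl-28 lies at -1.10 on II and mrps-12, mrps-28 and mrps-35 lie between -0.64 and -0.37 on V.

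**Figure D3:**
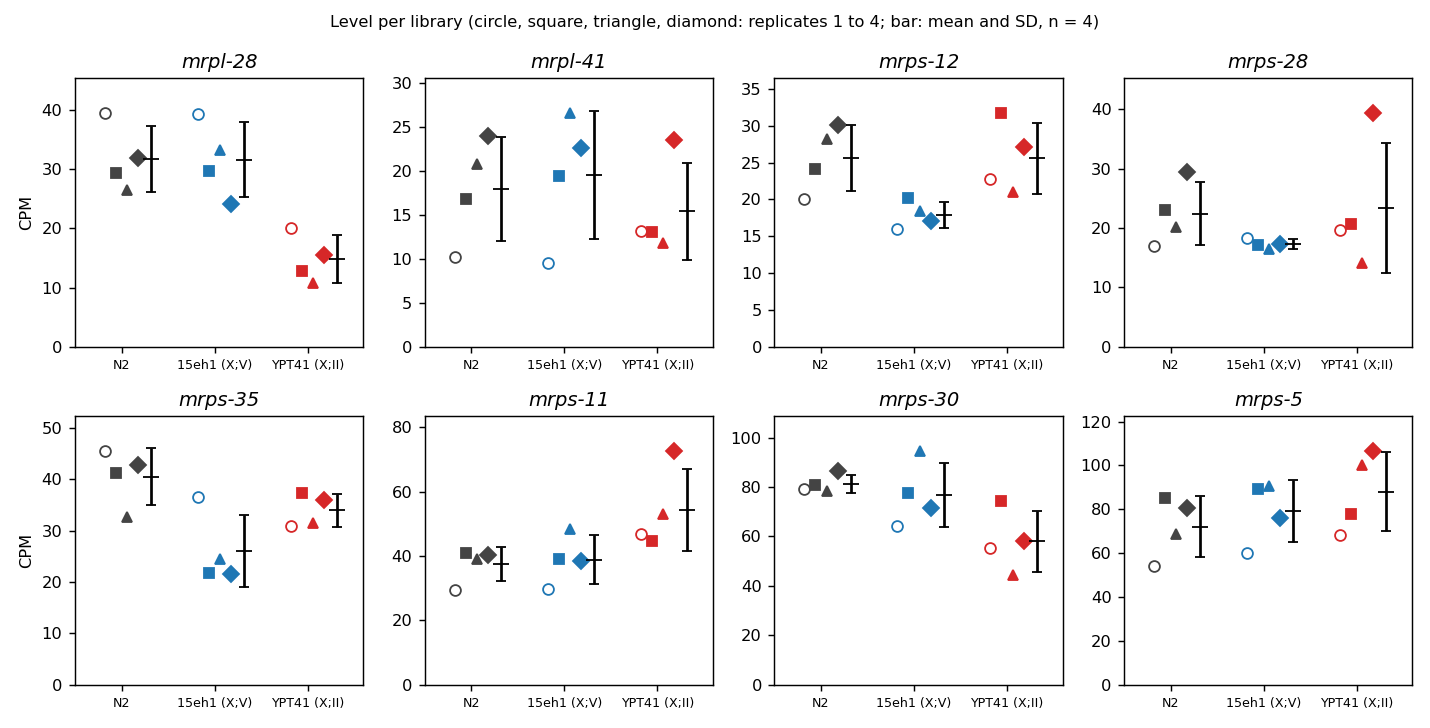
Level in CPM (y axis, from 0) of 8 genes in every library by strain; symbols mark replicates 1 to 4 and bars the mean and SD of 4 libraries. The 4 YPT41 libraries of mrpl-28 lie between 10.8 and 20.0 CPM, below all others, and those of mrps-11 between 44.6 and 72.6 CPM, above all N2 libraries.

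Beyond the chromosome ends, the small-subunit genes with the smallest p in YPT41 against N2 lay in both directions. mrps-11, whose bacterial counterpart S11 lies on the platform of the small subunit, was counted at 29.5, 40.9, 39.1 and 40.2 CPM in N2 and at 47.0, 44.6, 53.05 and 72.6 CPM in YPT41. 15eh1 was at 29.7, 39.0, 48.5 and 38.3 CPM. Every YPT41 library lay above every N2 library, with YPT41 replicate 4 highest. On the log2 scale YPT41 exceeded N2 by 0.54 ± 0.25 (edgeR adjusted p = 0.563, 0.114 with the block), and without YPT41 replicate 4 it was 0.28.

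In the opposite direction, mrps-30, which encodes a protein that sits on the large subunit in mammals despite its name, was counted at 79.2, 80.9, 78.3 and 86.5 CPM in N2 and at 55.5, 74.5, 44.6 and 58.1 CPM in YPT41. 15eh1 was at 64.2, 77.5, 94.4 and 71.3 CPM. The 4 N2 libraries lay close together and above all YPT41 libraries, and 15eh1 spanned both. Between YPT41 and N2 the log2 fold change was -0.48 ± 0.22 (edgeR adjusted p = 0.556, 0.16 with the block), and in replicates 2 to 4 it was -0.57.

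By size alone, mrps-14 gave a larger difference between YPT41 and N2 than these, and it is named after its values were seen. Its bacterial counterpart S14 lies in the head of the small subunit. The levels were 25.4, 33.3, 35.4 and 47.3 CPM in N2, 18.4, 29.9, 43.9 and 37.1 CPM in 15eh1 and 23.6, 55.1, 43.1 and 92.6 CPM in YPT41. All 3 strains overlapped, and YPT41 replicate 4 was the highest library. On the log2 scale YPT41 differed from N2 by 0.60 ± 0.41 (edgeR adjusted p = 0.780), and by 0.13 without YPT41 replicate 4. The difference of 15eh1 from YPT41 was -0.73 ± 0.41 (edgeR adjusted p = 0.989).

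Further small-subunit genes named for a small p in this comparison, mrps-22, mrps-15 and mrps-31, were lower in YPT41 than in N2. They were lower in 4 of 4 same-numbered pairs each, with overlapping ranges. mrps-22, a gene on chromosome II outside the end window, had a mean of 40.2 ± 10.1 CPM in YPT41, against 57.9 ± 8.41 CPM in N2 (SD, n = 4). Its log2 fold change was -0.53 ± 0.23 (edgeR adjusted p = 0.548). mrps-15, the counterpart of a bacterial protein that binds the small-subunit RNA early in assembly, stood at 20.6 ± 3.84 against 29.5 ± 7.81 CPM. Its difference was -0.51, or -0.37 in replicates 2 to 4. mrps-31 stood at 13.6 ± 4.84 against 20.6 ± 4.18 CPM, a difference of -0.59, and its lowest library was YPT41 replicate 4 at 7.50 CPM, in which most genes of the class were high.

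Of the small-subunit genes named for their role, mrps-5 was counted at 54.2, 85.1, 68.8 and 80.4 CPM in N2, at 60.3, 89.4, 90.5 and 76.2 CPM in 15eh1 and at 68.1, 77.8, 99.97 and 106 CPM in YPT41. All 3 strains overlapped, and replicate 1 was lowest in each. Its differences from N2 were 0.13 ± 0.24 in 15eh1 and 0.29 ± 0.24 in YPT41 (edgeR adjusted p = 0.833 for the latter). mrps-7, whose bacterial counterpart S7 organises the head of the small subunit, stood at 23.2 ± 2.14 CPM in N2, 26.9 ± 5.35 in 15eh1 and 18.9 ± 3.59 in YPT41 (SD, n = 4). 15eh1 exceeded YPT41 by 0.50 ± 0.24 (edgeR adjusted p = 0.911, 0.244 with the block).

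The small-subunit genes mrps-6, the counterpart of a bacterial protein of the platform, and mrps-34, which has no bacterial counterpart, were among those with the smallest p in 15eh1 against YPT41. mrps-6 stood at 22.3 ± 2.86 CPM in 15eh1 and 33.7 ± 11.7 in YPT41, lower in 15eh1 in 4 of 4 pairs, with a log2 fold change of -0.59 ± 0.31 (edgeR adjusted p = 0.939). mrps-34 stood at 28.3 ± 6.83 against 20.1 ± 4.67 CPM, a difference of 0.49 ± 0.27 (edgeR adjusted p = 0.973). The ranges overlapped for both genes. The 4 genes with mrps-18 symbols (mrps-18A, mrps-18B, mrps-18C and mrps-18.C) lay between -0.14 and 0.17 in the comparisons with N2, and their counts are uncertain to the extent that similar sequences shared reads.

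In the large subunit, genes for the parts that handle translation factors showed no difference that passed the test. mrpl-12, the counterpart of the bacterial stalk protein that recruits factors, stood at 31.97, 50.9, 50.4 and 61.1 CPM in N2, at 27.3, 59.5, 73.6 and 58.9 CPM in 15eh1 and at 31.3, 51.2, 45.2 and 81.6 CPM in YPT41. Replicate 1 was the lowest library of each strain, and the strains overlapped. mrpl-10, which anchors the stalk in bacteria, stood at 28.4 ± 10.0 CPM in N2, 26.6 ± 6.39 in 15eh1 and 22.7 ± 4.48 in YPT41 (SD, n = 4). mrpl-11, at the base of the stalk in bacteria, stood at 47.0 ± 7.39, 46.0 ± 3.59 and 36.7 ± 12.8 CPM. In YPT41 it was lower than in N2 in 3 of 4 pairs, with a log2 fold change of -0.36 ± 0.26 (edgeR adjusted p = 0.804), with YPT41 replicate 4 the exception.

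None of the other large-subunit genes named here passed the test. mrpl-2, whose bacterial counterpart lies near the peptidyl transferase centre, stood at 32.4 ± 4.24 CPM in N2, 38.6 ± 4.35 in 15eh1 and 30.97 ± 8.13 in YPT41 (SD, n = 4). mrpl-1, the counterpart of the mobile L1 stalk protein of bacteria, was lower than N2 in 3 of 4 pairs in both fusion strains, with log2 fold changes of -0.31 ± 0.20 in 15eh1 and -0.37 ± 0.20 in YPT41 (edgeR adjusted p = 0.663 for the latter). mrpl-36, the counterpart of a small bacterial large-subunit protein, stood at 0.29 ± 0.22 in 15eh1 and 0.31 ± 0.22 in YPT41. mrpl-20, whose bacterial counterpart is needed early in large-subunit assembly, stood at 0.47 ± 0.37 in 15eh1, with 15eh1 replicates 2 to 4 between 29.7 and 33.2 CPM and 15eh1 replicate 1 at 14.8 CPM.

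Within the class, replicate 1 differed in level from the later replicates in all 3 strains. It lay below the mean of replicates 2 to 4 for 48 of 69 genes (69.6%) in N2, 51 (73.9%) in 15eh1 and 56 (81.2%) in YPT41. Over all tested genes these shares were 53.6%, 52.6% and 51.8%. The median difference in log2 CPM was -0.34, -0.35 and -0.30, respectively, against -0.16, -0.10 and -0.06 over all tested genes. In all 3 strains together, 42 genes (60.9%) lay below 0, against 40.3% of all tested genes. Above 0 in all 3 strains lay 7 genes (10.1%), against 35.8% of all tested genes. These are descriptions without a test. Replicate 1 also carried the yolk and germline transcripts given above, whose part in the difference was not tested. In replicate 1 of N2, 15eh1 and YPT41 the yolk genes summed to 166746, 158929 and 66956 CPM. The germline markers summed to 10444, 7760 and 2799 CPM, respectively.

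The genes lowest in replicate 1 were mrpl-54, mrpl-37 and mrps-33, whose proteins have no bacterial counterpart, and mrpl-30, the counterpart of bacterial L30. For mrpl-37 the levels were 20.3, 50.8, 49.1 and 48.2 CPM in N2, 24.8, 47.6, 69.2 and 51.3 CPM in 15eh1 and 33.1, 54.9, 60.7 and 76.2 CPM in YPT41. For mrps-33 they were 20.3, 32.8, 35.9 and 38.1 CPM in N2, 16.8, 40.9, 44.8 and 47.3 CPM in 15eh1 and 23.1, 43.5, 31.3 and 51.7 CPM in YPT41. Replicate 1 was the lowest library of both genes in every strain, without overlap with the others. The difference in log2 CPM of replicate 1 from the mean of the others was -1.39 in N2, -1.04 in 15eh1 and -0.70 in YPT41 for mrpl-54, and -0.88, -1.09 and -0.98 for mrpl-30.

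Some genes lay the other way. Replicate 1 was the highest library for 14 of 69 genes in N2, for 16 in 15eh1 and for 1, mrpl-28, in YPT41. The 4 genes with the largest mean excess of replicate 1 over the 3 strains were mrpl-58, mrpl-10, mrps-10 and mrpl-28. For mrpl-58, whose human counterpart releases peptides from stalled ribosomes, the levels were 40.4, 24.7, 13.9 and 18.7 CPM in N2 and 32.2, 23.2, 22.8 and 20.3 CPM in 15eh1. In YPT41 they were 22.3, 21.7, 26.3 and 36.7 CPM, with replicate 1 inside the range of the others. Replicate 1 was thus highest in N2 and 15eh1 and not in YPT41. For mrps-10 replicate 1 exceeded replicates 2 to 4 by 0.55 in N2, 0.75 in 15eh1 and 0.05 in YPT41, and for mrpl-28 by 0.44, 0.45 and 0.64. Both differences of mrpl-28, between strains and between replicates, were thus seen in the same libraries, and its YPT41 replicate 1 level of 20.0 CPM remained below the lowest library of the other strains.

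**Figure D4:**
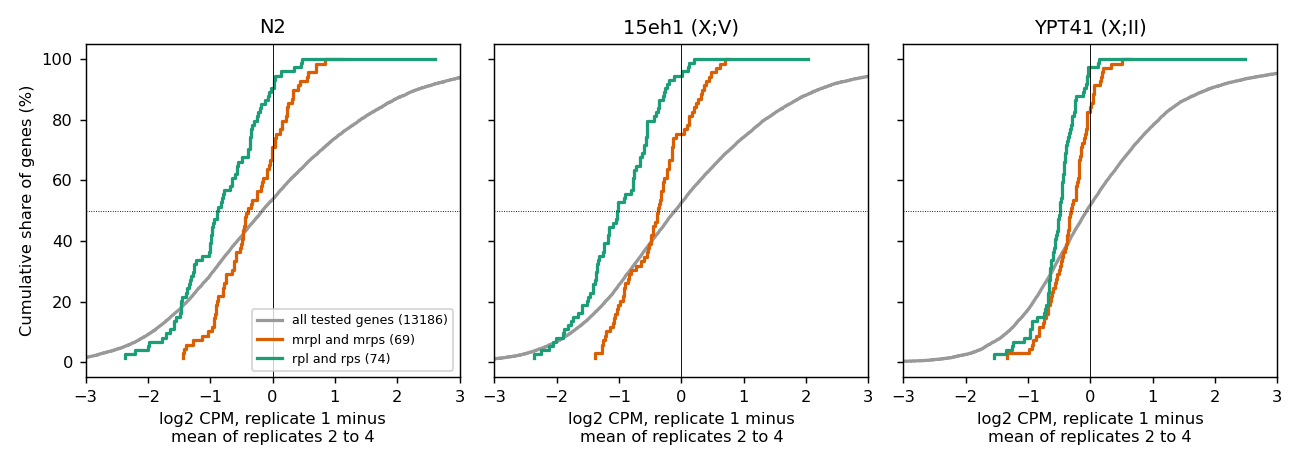
Cumulative share of genes in percent (y axis) by log2 CPM of replicate 1 minus the mean of replicates 2 to 4 (x axis), for each strain. The curve of the 69 mitochondrial ribosomal protein genes crosses 50% at -0.34, -0.35 and -0.30, left of all tested genes at -0.16, -0.10 and -0.06 and right of the cytosolic ribosomal protein genes at -0.85, -1.02 and -0.49.

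In log2 CPM, which uses scaled library sizes, YPT41 replicate 4 was the highest YPT41 library for 54 of 69 genes. The median deviation of the class from the strain mean was 0.43 in that library, against 0.02 over all tested genes. In the other 11 libraries it lay between -0.27 and 0.24. Replicate 4 exceeded the mean of replicates 2 and 3 for 63 of 69 genes in YPT41 with a median of 0.54, for 55 in N2 with a median of 0.18, and for 19 in 15eh1 with a median of -0.17. With RLE size factors the median in YPT41 was 0.47. Before scaling, YPT41 replicate 4 did not stand apart in this way. The class took 0.216% of its gene counts, against 0.234% in YPT41 replicate 2 and 0.209% in YPT41 replicate 3. Among replicates 2 to 4 the median within-strain SD of log2 CPM was 0.38 in YPT41, 0.19 in N2 and 0.17 in 15eh1. Over all tested genes it had the same order, at 0.44, 0.27 and 0.22. Cytosolic ribosomal protein genes and the respiratory chain lists were also high in YPT41 replicate 4 in log2 CPM, with median deviations from 0.59 to 0.84. Its molting epidermis markers summed to 1575 CPM, the lowest sum among replicates 2 to 4 of any strain, and its yolk and germline markers to 12.9 and 149 CPM. The part of any of these in its difference was not tested.

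**Figure D5:**
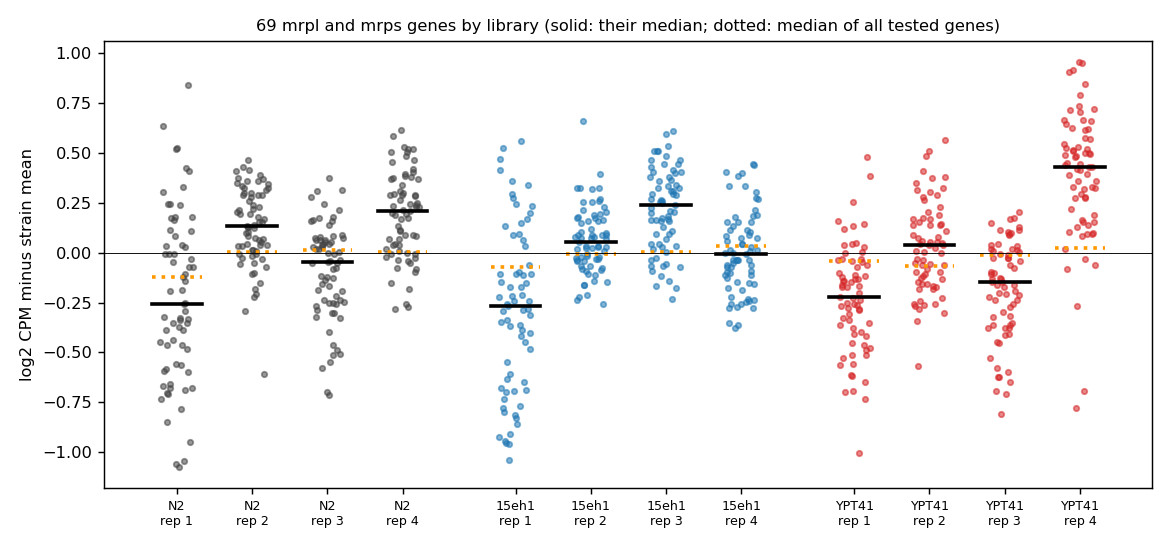
Log2 CPM minus the strain mean (y axis) of the 69 genes in each of the 12 libraries (x axis); solid bars are their median and dotted bars the median of all tested genes. YPT41 replicate 4 stands highest with a median of 0.43, and replicate 1 of each strain lies between -0.27 and -0.22.

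Other genes of translation and of the respiratory chain were read from the same fits. Of 76 cytosolic ribosomal protein genes, 74 were tested and 0 were called in any comparison, with or without the block. In YPT41 against N2 all 74 lay above 0 with a median of 0.43, and the median was 0.28 in replicates 2 to 4. Without YPT41 replicate 4 it was 0.11, with 62 above 0. In 15eh1 against N2, 65 lay above 0 with a median of 0.20. With RLE size factors these medians were 0.33, still with all 74 above 0, and 0.16. The mitochondrial ribosomal protein genes, with medians of 0.02 in both comparisons, lay lower, a difference that was not tested. As in the mitochondrial class, cytosolic ribosomal protein genes were lower in replicate 1.

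Respiratory chain genes were likewise not called in either comparison with N2, with or without the block. The 6 nuo genes of complex I had a median of 0.29 in YPT41 against N2, the 14 cox genes of complex IV a median of 0.42, and 17 genes of complexes III and V a median of 0.36 with 15 above 0. These medians in 15eh1 against N2 were 0.11, 0.03 and 0.03. With RLE size factors those in YPT41 were 0.19, 0.32 and 0.26, and those of complex IV and of complexes III and V in 15eh1 turned to -0.0091 and -0.0081. The medians in YPT41 rested on YPT41 replicate 4. In replicates 2 to 4 alone they were 0.13, 0.30 and 0.27, whereas without YPT41 replicate 4 they were -0.06, -0.16 and -0.05. The 8 listed genes of the mitochondrial unfolded protein response, among them the chaperones hsp-6 and hsp-60, had medians of -0.15 in YPT41 and -0.03 in 15eh1, with 0 called. In replicates 2 to 4 alone the median in YPT41 was -0.06, and without YPT41 replicate 4 it was -0.19.

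Of 21 genes listed for mitochondrial translation factors and tRNA synthetases, 16 were found and tested, and 0 were called without the block. Their medians against N2 were -0.08 in YPT41 and -0.03 in 15eh1. In replicates 2 to 4 alone these were -0.31, with 14 of 16 below 0, and -0.11, with 12 below 0. The medians of all tested genes in that setting were 0.02 in YPT41 and 0.01 in 15eh1. Without YPT41 replicate 4 the median in YPT41 was -0.29. With the block, 1 was called lower in YPT41, beside 1.1% of all tested genes called lower. This gene was iars-2, which charges the isoleucine tRNA of mitochondria. It stood at 33.4 ± 15.2 CPM in YPT41 and 58.3 ± 14.7 CPM in N2 (SD, n = 4), a log2 fold change of -0.87 ± 0.21 with the block (edgeR adjusted p = 0.0388). In replicates 2 to 4 alone 0 of the list were called in edgeR's test, with a lowest adjusted p of 0.110. Replicate 1 minus the mean of replicates 2 to 4 had medians over these genes of 0.19 in N2, 0.16 in 15eh1 and 0.54 in YPT41. Below 0 lay 6, 6 and 3 of 16, respectively. Above 0 in all 3 strains lay 8 (50%), against 35.8% of all tested genes. The ribosomal protein genes of the mitochondria had medians of -0.34, -0.35 and -0.30.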

How the data were processed

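The authors deposited 1 table of whole-number read counts per gene for each of 12 RNA-seq libraries; the unit was read from the values. Per the submitters' processing notes, TopHat2 2.1.1, SAMtools 1.6 and HTSeq were among the tools used, with no role given. The build, annotation release and strand setting are not stated, so overlapping and antisense genes cannot be told apart, and no coordinates are printed. Summary lines (no feature 2.48% to 4.25%, ambiguous 0.656% to 0.893%, not unique 13.2% to 22.7%) stayed out of library sizes. Of 20389 identifiers, 19879 matched a locus tag. The other 153 of 165 samples, ChIP-seq and inputs, were not used here.

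The test was edgeR's (version 4.0.16, R 4.3.3) two-sided quasi-likelihood test, with TMM scaling and filterByExpr by strain, in 1 fit of all 12 libraries with strain as the only term, Benjamini-Hochberg adjustment over 13186 genes and a threshold of 0.05. CPM values use the TMM-scaled library size, and log2 CPM a prior count of 2. SE is the log2 fold change divided by the square root of F. The fit was also run on simulated counts, whose outcome is not given here and is not used as support. In these the strains shared their means apart from the changes put in. A library that stands apart in a single strain, such as YPT41 replicate 4, was therefore not represented. Intervals and floors of 3 counts cover the error stated and, for floors, counting error only. Alternatives were RLE factors, no filter, DESeq2 1.42.0, both strains alone, replicates 2 to 4 alone, and each library left out. For the other gene lists, RLE factors and leaving out YPT41 replicate 4 were chosen after seeing the data.

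Replicate numbers come from the titles. Deviations from strain means correlated between same-numbered libraries at 0.319 to 0.942 in 12 of 12 pairs, above the limit of 0.1 for pairing. Without replicate 1 the correlations were -0.12 to 0.44, 4 of 9 exceeding 0.1, and replicate 1 thus carries most of it. Counts of same-numbered pairs are therefore given as description only. Many of the genes concerned were named for a small p, and no share over all tested genes stands beside these counts.

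The genes and lists were chosen with earlier results of these data known. Named are the 6 genes with the smallest p per comparison, the 4 highest and 4 lowest in replicate 1, 7 chosen by role, and those among the 100 tested genes nearest the right end of V or the left end of II. Levels per coding length, promoter motifs and a list of mitochondrially encoded genes were also planned and are not analysed here.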

Additional observations from a re-analysis of the deposited data

Results flagged for a closer look

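The 27 named genes and the summed share of the class, in 3 strains each, gave 84 groups of 4 libraries. Of these, 7 held a library far from the other 3 by Dixon's criterion. In unselected and independent groups chance meets it in about 1 of 20. That rate does not hold here, because the groups share the same libraries. In addition, mrpl-37, mrps-33 and mrps-10 were named for their replicate 1 values. In 15eh1 replicate 1, mrpl-20 was at 14.8 CPM against 29.7 to 33.2 in the others, mrps-33 at 16.8 against 40.9 to 47.3, and mrps-10 at 40.1 against 23.0 to 24.6. In N2 replicate 1, mrpl-37 was at 20.3 CPM against 48.2 to 50.8, mrps-11 at 29.5 against 39.1 to 40.9, and mrps-15 at 41.2 against 24.8 to 26.0. In YPT41 replicate 4, mrpl-41 was at 23.6 CPM against 11.8 to 13.2. Replicate 1 carried the yolk and germline transcripts described above in both strains, and their part in these values was not tested.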

How the results depend on the processing

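In YPT41 against N2, 1 gene (mrpl-28) was called with the replicate block, in replicates 2 to 4 alone, in those with the block, and with DESeq2 (adjusted p = 0.00283), against 0 without these; in 15eh1 against YPT41, 1 (mrpl-28) was called with the block, in replicates 2 to 4 alone and with DESeq2 (adjusted p = 0.00697). In 15eh1 against N2, 0 were called in every setting run. The cause of the differences was not tested. The median of YPT41 against N2 was -0.25 without YPT41 replicate 4, with a range of -0.25 to 0.069 over single libraries left out. It was -0.08 to 0.11 for 15eh1 against N2 and 0.01 to 0.23 for 15eh1 against YPT41, with 0 to 0 genes called in all 3. RLE factors moved the median of all genes in YPT41 against N2 from 0.03 to -0.07 and that of the class to -0.09. The replicate block changed no other call of the class. Of the 81 log2 fold changes of the 27 named genes in the 3 comparisons, 50 kept their sign in all 19 alternatives and 31, at most 0.344 in size, changed sign in at least 1. Of those printed singly, 3 changed. For mrps-12 in YPT41 against N2 the values were -0.0929 with RLE factors, -0.0996 without the filter, -0.0026 with the replicate block, -0.0027 with 2 strains compared alone, -0.151 in replicates 2 to 4 alone, -0.171 in these with the block and -0.0934 with DESeq2, and -0.239 to 0.0714 over single libraries left out. In 15eh1 against N2, mrpl-28 ranged from -0.128 to 0.107 and mrps-5 from -0.0086 to 0.245 over single libraries left out. At this depth a level of mrps-16 below the 3-count floors was not detectable, and why it had 0 counts was not tested.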
